A study of Mus musculus with 13 samples.

Results

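Integrins are cell surface receptors made of 1 α and 1 β chain, through which leukocytes hold on to other cells and to matrix. The 9 subunits described here, Itga4, Itga6, Itgal, Itgam, Itgav, Itgb1, Itgb2, Itgb3 and Itgb7, were chosen as named integrin chains by gene symbol, not by their values. They are 9 genes of the 47643 gene identifiers in the table of normalized counts; a second identifier also carries the symbol Itgam, so that the 9 symbols stand on 10 identifiers. RNA came from splenic B cells of the C57BL/6 background, enriched by removing cells that carry CD43 and cultured for 48 h with 25 µg/ml of LPS, a bacterial cell wall lipid that B cells sense through Toll-like receptor 4. The Whsc1-KO group (genotype Whsc1-/-) had 6 libraries and the WT group 7. Whsc1 encodes a histone H3 lysine 36 methyltransferase, and its loss is lethal in embryos. Both groups therefore come from lethally irradiated RAG1-KO recipients whose blood system was rebuilt with fetal liver cells of Whsc1-KO or WT embryo littermates. Such hosts make no mature B or T cells of their own, and both genotypes share the irradiation, the host and the LPS culture. The comparison asks which transcripts of LPS-stimulated B cells differ when Whsc1 is deleted in all blood cells, not in B cells alone; the age of the mice is not given in the sources used here.

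An α chain and a β chain pair in the cell before they reach the surface, and most chains can take more than 1 partner, so the supply of one chain bears on which pairs can form. On B cells the αL chain with β2 (LFA-1) binds ICAM ligands, and the α4 chain with β1 (VLA-4) binds VCAM-1 and fibronectin; both hold B cells in the marginal zone of the mouse spleen. The α4 chain with β7 guides lymphocytes to the gut. Integrins at rest bind poorly and are switched on from inside the cell, when Rap1, a small GTPase, brings talin and kindlin to the β chain tail.

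Promoter sequence is shown for the subunit with the largest positive fold change among those that passed the test, Itgam, and for a β and an α chain that fell, Itgb1 and Itga4, which pair with each other. Each run is the 250 bases before the gene start on the gene's own strand, from RefSeq with the build GRCm38.p6. Capitals mark GAGGAA or its reverse complement TTCCTC, the core of the binding site of PU.1, a transcription factor of myeloid and B cells. The windows are chr7:128062390-128062639 (plus strand) for Itgam, chr8:128685404-128685653 (plus strand) for Itgb1 and chr2:79255176-79255425 (plus strand) for Itga4.
Itgam: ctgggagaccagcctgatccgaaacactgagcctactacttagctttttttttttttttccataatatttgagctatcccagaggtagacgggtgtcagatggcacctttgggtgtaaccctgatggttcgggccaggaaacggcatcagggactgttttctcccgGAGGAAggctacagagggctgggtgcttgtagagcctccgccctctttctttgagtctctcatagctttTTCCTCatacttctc
Itgb1: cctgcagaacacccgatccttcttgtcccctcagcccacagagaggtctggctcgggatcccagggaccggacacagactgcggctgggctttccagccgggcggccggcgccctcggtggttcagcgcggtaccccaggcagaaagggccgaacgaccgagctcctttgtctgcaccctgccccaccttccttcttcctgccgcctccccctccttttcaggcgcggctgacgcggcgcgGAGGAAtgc
Itga4: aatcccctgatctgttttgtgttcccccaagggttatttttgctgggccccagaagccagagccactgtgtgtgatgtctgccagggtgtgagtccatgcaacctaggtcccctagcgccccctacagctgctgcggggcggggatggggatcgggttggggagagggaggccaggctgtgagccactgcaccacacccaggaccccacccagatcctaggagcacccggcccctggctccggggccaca
The matches began 84 and 15 bases before the start in Itgam and 9 bases before it in Itgb1, and Itga4 held no match. The RefSeq table had a promoter for 5 of the 9 subunits (Itga4, Itgam, Itgav, Itgb1 and Itgb7), and 3 of the 5 held a match, Itgav at 218 and 7 bases before its start. The motif, counted on both strands, occurred in 23.3% of the 32851 promoters of the same length in that table. A match in letters is a description of the window, not a binding site.

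Depth was 39101317 to 49443099 gene reads per Whsc1-KO library and 38881663 to 53019516 per WT library. Whsc1 itself was 3733 to 5261 normalized counts in the Whsc1-KO libraries and 5537 to 7459 in the WT libraries, so that its groups did not overlap, although reads over the gene were still counted in every Whsc1-KO library. It was 3733 to 4419 in Whsc1-KO replicates 1 to 3 and 4842 to 5261 in Whsc1-KO replicates 4 to 6. Its log2 fold change was -0.84 in replicates 1 to 3 of both groups and -0.27 in the later ones (limma adjusted p = 0.000707 and 0.0121). The B cell identity of the libraries was checked with 8 defining markers, whose summed level was 378202 to 541093 normalized counts in Whsc1-KO and 568835 to 664723 in WT; 6 of the 8 were lower in Whsc1-KO and 0 were higher, Cd79b, a chain of the B cell receptor complex, at -0.60 on the log2 scale (limma adjusted p = 0.00027). In the same fit 25.7% of all genes were lower and 26.1% higher. Whsc1-KO replicates 4 to 6 stood apart from the other libraries. The sum of 14 myeloid markers was 14433 to 15117 there, against 1820 to 2754 in Whsc1-KO replicates 1 to 3 and 830 to 2314 in WT, the highest WT value being that of replicate 5. Of these 14 markers 7 were tested, 6 were higher in Whsc1-KO and 1, Elane, had no read in any library; Lyz2, the lysozyme of macrophages and neutrophils, was at 7385 to 10272 in Whsc1-KO replicates 4 to 6. The sum of 8 red pulp macrophage markers was 3847 to 5594 in those 3 libraries, 446 to 848 in Whsc1-KO replicates 1 to 3 and 199 to 515 in WT. The sum of 8 erythroid markers was 12907 to 194393, 2568 to 3054 and 865 to 3323 in the same 3 sets. In replicates 1 to 3 of both groups alone, 4 of the 5 tested erythroid markers were higher in Whsc1-KO. Each of the 9 subunits is therefore also given without Whsc1-KO replicates 4 to 6 or within the 2 sets of replicates, 1 to 3 and 4 and above, and for other genes the values in these sets are given where a call was lost. The sex of the cells was also unevenly spread: Y-linked genes rather than Xist were read in 4 of the 6 Whsc1-KO libraries (replicates 1, 2, 3 and 6) and in 2 of the 7 WT libraries (replicates 6 and 7). In replicates 1 to 3 all Whsc1-KO libraries were of one kind and all WT libraries of the other, so that sex and genotype cannot be told apart in that set. Without Whsc1-KO replicates 4 to 6 sex was unevenly spread too. Every Whsc1-KO library left then read Y-linked genes, against 2 of the 7 WT libraries, and 4 of 5 sex-linked markers were called higher. With a score of sex (Y-linked genes minus Xist) as a covariate over all libraries, the same 2 subunits were higher and the same 4 lower as without it.

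All 9 subunits passed the filter, which asked for 6 or more libraries with a normalized count of at least 10. In the fit of 13947 genes with limma, which adjusts p over all of them at a threshold of 0.05, 2 subunits were higher in Whsc1-KO (Itgam and Itgb2), 4 were lower (Itgb1, Itgb7, Itgal and Itga4) and 3 did not pass (Itga6, Itgav and Itgb3). In the same fit 51.8% of all genes were called, 26.1% higher and 25.7% lower, so that a count of 6 called among 9 is not set apart from the rest of the table. The median log2 fold change was -0.22 over the 9 subunits and 0.00 over all genes. The groups did not overlap for 2 subunits, Itgb1 and Itgal, against 19.3% of all genes, 9.03% with Whsc1-KO above WT and 10.2% with Whsc1-KO below. Without Whsc1-KO replicates 4 to 6, where 29.6% of genes were called (14% higher and 15.6% lower), 1 subunit was higher (Itgb2) and 4 lower (Itgb1, Itgal, Itga4 and Itgb3). In replicates 1 to 3 of both groups alone, with 15.6% of genes called (6.79% higher and 8.76% lower), 2 were higher (Itgam and Itgb2) and 3 lower (Itgb1, Itgal and Itgb3). In the later replicates alone, with 60.1% called (30% higher and 30.1% lower), 3 were higher (Itga6, Itgam and Itgb2) and 4 lower (Itgb1, Itgb7, Itgal and Itga4). Itgb2, Itgb1 and Itgal thus passed with 1 sign in the full set and in all 3 reduced sets. In the authors' deposited table, with 41.5% of its genes at an adjusted p under 0.05, 2 subunits were higher and 4 lower as well.

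**Figure D1:**
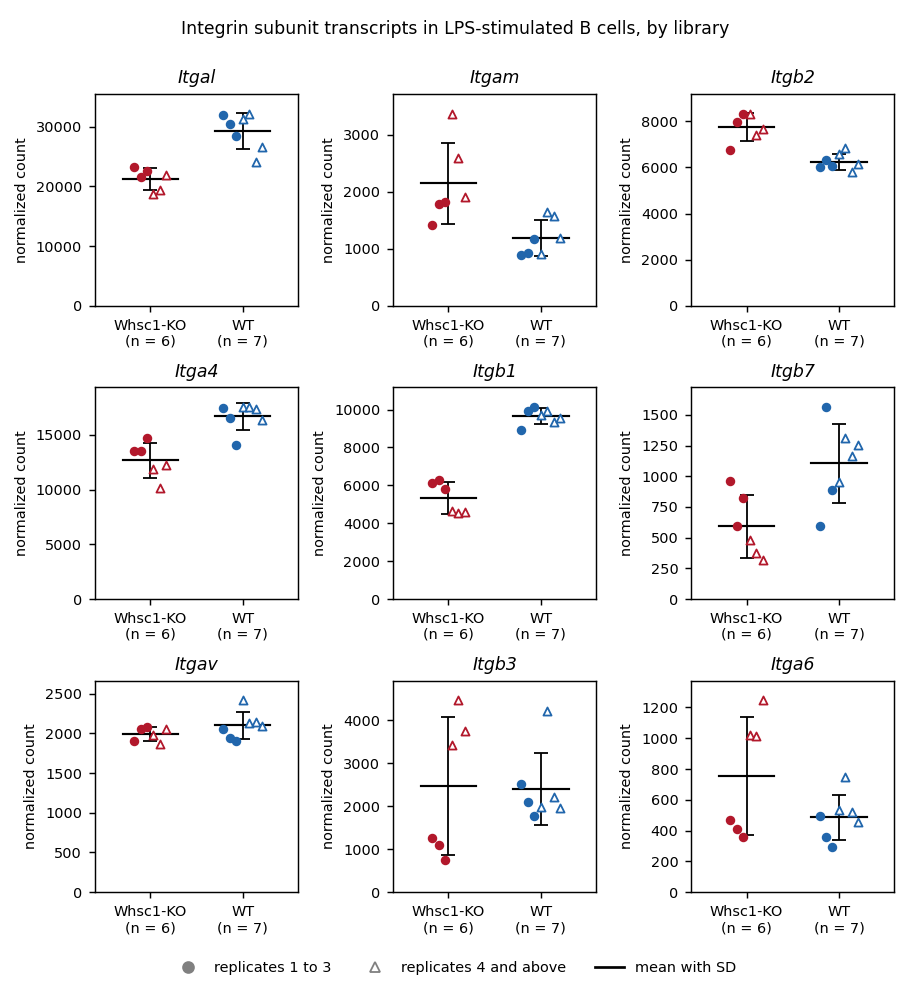
Normalized count (y axis, from 0) of each integrin subunit in every library, Whsc1-KO (red) left of WT (blue); filled circles are replicates 1 to 3, open triangles replicates 4 and above, and the black line and bars the mean and SD. The 2 groups are fully apart for Itgb1 and Itgal, while Whsc1-KO replicates 4 to 6 lie apart from replicates 1 to 3 for Itgb3 and Itga6.

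The subunits that pair in the β2 family moved in different directions. Itgal encodes αL, the chain of LFA-1, and lies on chromosome 7 at 127296260 to 127335138 (plus strand; coordinates of all genes here are of GRCm38). The lowest, median and highest normalized counts of Itgal were 18700.3, 21756 and 23198 in Whsc1-KO and 24092, 30478 and 32181 in WT. Every Whsc1-KO library lay below every WT library. Itgal averaged 21243 ± 1785 (SD, n = 6) in Whsc1-KO and 29270 ± 3059 (SD, n = 7) in WT, a log2 fold change of -0.46 with SE 0.08 (limma adjusted p = 0.000462). It was -0.38 without Whsc1-KO replicates 4 to 6, -0.43 in replicates 1 to 3 and -0.50 in the later ones, past the threshold in each.

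Itgb2 encodes β2 (CD18), without which none of the 4 β2 integrins reaches the surface; it lies on chromosome 10 at 77530252 to 77565708 (plus strand). Its lowest, median and highest normalized counts were 6751, 7828 and 8337 in Whsc1-KO and 5787, 6158 and 6822 in WT. The groups overlapped by 1 Whsc1-KO library, replicate 1, which lay under WT replicate 5. The log2 fold change of Itgb2 was 0.31 with SE 0.06 (limma adjusted p = 0.00079). It was 0.30 without Whsc1-KO replicates 4 to 6, 0.32 in replicates 1 to 3 and 0.30 in the later ones, so that its size did not differ between the sets by more than its SE.

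Itgam encodes αM (CD11b), which with β2 forms the complement receptor Mac-1 of myeloid cells and is also carried by B-1 cells of the body cavities. It lies on chromosome 7 at 128062640 to 128118491 (plus strand). Its lowest, median and highest normalized counts were 1423, 1864 and 3370 in Whsc1-KO and 889.7, 1176 and 1637 in WT. The groups overlapped, and the 3 highest values of all were those of Whsc1-KO replicates 4 to 6, at 1905 to 3370. The log2 fold change was 0.84 with SE 0.20 (limma adjusted p = 0.00366). Without Whsc1-KO replicates 4 to 6 it was 0.53 and did not pass (adjusted p = 0.0621), within replicates 1 to 3 it was 0.75 and passed (adjusted p = 0.0107), and within the later replicates it was 0.98 (adjusted p = 0.00705). Myeloid markers moved with it in part: in replicates 1 to 3 alone 2 of the 7 tested myeloid markers were higher in Whsc1-KO, and 6 of 7 were higher in the later replicates. Of 7 tested B-1 cell markers 1 was higher and 1 lower over all libraries. Without Whsc1-KO replicates 4 to 6, 3 of them were higher and 1 lower. The part of either set of markers in the Itgam result was not tested. The second identifier with this symbol spans 128062683 to 128128160 over the same locus and held 4.46 to 26.1 normalized counts in Whsc1-KO and 0 to 12.4 in WT. It reached 10 in 5 libraries and was not tested. How the authors' counting shared reads between the pair is not given in the sources used here, but the second holds few of them.

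The β2 chain and its partners were also compared within each library, as normalized count per kilobase of annotated exon. Of the summed level of Itgal, Itgam, Itgax and Itgad, the 4 α chains of β2, Itgal made up 87.6% ± 4.22 (SD, n = 6) in Whsc1-KO and 94.8% ± 1.62 (SD, n = 7) in WT. Itgam made up 11.7% ± 4.30 in Whsc1-KO and 5.11% ± 1.6 in WT, and within Whsc1-KO its share was 8.83% ± 1.26 in replicates 1 to 3 and 14.6% ± 4.39 in replicates 4 to 6 (SD, n = 3 each). Itgax stayed below 1% of the sum in every library. The sum of the 4 α chains divided by Itgb2 was 1.30 to 1.74 in Whsc1-KO and 2.10 to 2.55 in WT, ranges that do not overlap. Transcript levels say nothing of how many chains pair at the surface.

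Among the chains that pair with α4, Itgb1 had the smallest adjusted p of the 9 subunits. Itgb1 encodes β1, the β chain of VLA-4 and of many receptors for fibronectin, laminin and collagen, and lies on chromosome 8 at 128685654 to 128733200 (plus strand). Its lowest, median and highest normalized counts were 4525, 5217 and 6294 in Whsc1-KO and 8925, 9729.96 and 10155 in WT. The highest Whsc1-KO library was below the lowest WT library. Itgb1 averaged 5331 ± 825 (SD, n = 6) in Whsc1-KO and 9647 ± 418 (SD, n = 7) in WT, or 55.3% of the WT mean, with a log2 fold change of -0.87 and SE 0.08 (limma adjusted p = 6.78e-06). In replicates 1 to 3 the log2 fold change was -0.67 (adjusted p = 0.00131), and in the later replicates, where the Whsc1-KO values were 4525 to 4637, it was -1.07 (adjusted p = 3.66e-06). Over all libraries the 6 B cell markers counted above were lower in Whsc1-KO beside it, against 25.7% of all genes, with Cd22, a B cell inhibitory receptor, at -1.14 on the log2 scale. In replicates 1 to 3 alone 2 of the 8 B cell markers were lower, against 8.76% of all genes, and Cd22 was at -0.45 (limma adjusted p = 0.0161). Of 8 marginal zone B cell markers 3 were higher and 4 lower over all libraries. Their sum was 13590 to 15048 in Whsc1-KO replicates 4 to 6, 23462 to 30303 in Whsc1-KO replicates 1 to 3 and 17794 to 27359 in WT. The part of these cells in the Itgb1 result was not tested. In bulk samples fewer cells of a type and less RNA per cell cannot be told apart.

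Itga4 encodes α4 and lies on chromosome 2 at 79255426 to 79333123 (plus strand). Its lowest, median and highest normalized counts were 10137, 12875 and 14735 in Whsc1-KO and 14053, 17339 and 17586 in WT. Only Whsc1-KO replicate 3 reached into the WT range, above WT replicate 3. The log2 fold change was -0.40 with SE 0.08 (limma adjusted p = 0.0013). It was -0.26 without Whsc1-KO replicates 4 to 6 (adjusted p = 0.0228), -0.20 in replicates 1 to 3, where it did not pass (adjusted p = 0.174), and -0.59 in the later replicates (adjusted p = 0.000176).

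Itgb7 encodes β7, which pairs with α4 and with αE, and lies on chromosome 15 at 102215995 to 102231944 (minus strand). Its lowest, median and highest normalized counts were 315.4, 538.6 and 963.0 in Whsc1-KO and 595.8, 1161 and 1566 in WT. Whsc1-KO replicates 4 to 6 held 315.4 to 483.5 and lay below every WT library, while of Whsc1-KO replicates 1 to 3, at 593.8 to 963.0, 2 lay inside the WT range. The log2 fold change was -0.95 with SE 0.27 over all libraries (limma adjusted p = 0.00922). It was -0.45 without Whsc1-KO replicates 4 to 6 (adjusted p = 0.199), -0.27 in replicates 1 to 3 (adjusted p = 0.587) and -1.59 in the later replicates (adjusted p = 6.7e-05). The call for Itgb7 thus rested on Whsc1-KO replicates 4 to 6, the libraries with the highest myeloid and the lowest B cell marker sums; their part in it was not tested.

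The remaining chains did not pass with all libraries. Itgav encodes αv, which with several β chains binds ligands that carry an RGD sequence, and lies on chromosome 2 at 83724397 to 83806916 (plus strand). Its lowest, median and highest normalized counts were 1867, 2015 and 2078 in Whsc1-KO and 1907, 2096.5 and 2424 in WT, groups that overlap over most of their range. Its log2 fold change was -0.08 with SE 0.06 (limma adjusted p = 0.283), the smallest in size of the 9, and it did not pass in any of the 3 reduced sets.

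Itgb3 encodes β3, which pairs with αv on many cells and with αIIb on platelets, and lies on chromosome 11 at 104608000 to 104670476 (plus strand). Its normalized counts were 758.4 to 1269 in Whsc1-KO replicates 1 to 3, 3435 to 4483 in Whsc1-KO replicates 4 to 6, and 1765 to 4228 in WT, with a WT median of 2096. The first 3 Whsc1-KO libraries lay below every WT library, and the other 3 lay above all WT libraries but replicate 5, which only Whsc1-KO replicate 5 exceeded. Over all libraries the log2 fold change was -0.22 with SE 0.39 (limma adjusted p = 0.664), while the mean was 2464 in Whsc1-KO and 2398 in WT, so that the log2 and the linear means differ in sign. Without Whsc1-KO replicate 3 alone the log2 fold change was 0.061. Itgb3 was lower in replicates 1 to 3, at -1.05 (adjusted p = 0.0117), and lower without Whsc1-KO replicates 4 to 6, at -1.18 (adjusted p = 0.00454). In the later replicates it was 0.65 and did not pass (adjusted p = 0.0517). The platelet marker sum was 53.1 to 166 normalized counts in Whsc1-KO replicates 4 to 6, 17.2 to 35.5 in Whsc1-KO replicates 1 to 3 and 7.36 to 43.6 in WT, and its part in the Itgb3 values was not tested. The myeloid sum was high in the same 3 Whsc1-KO libraries. In Whsc1-KO replicates 1 to 3, where Itgb3 lay below every WT library, that sum was 1820 to 2754, against 830 to 2314 in WT. Within WT it was highest in replicate 5, at 2314, and that library also had the highest Itgb3 of its group. Most of that WT sum was 1 gene, Ly6c2, at 1577 (named outside the rule), a marker that did not pass (limma adjusted p = 0.0818). The red pulp macrophage sum of WT replicate 5 was 323, inside the WT range. The part of the myeloid sum in the Itgb3 values was not tested.

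Itga6 encodes α6, a laminin receptor chain that pairs with β1 or β4, and lies on chromosome 2 at 71745616 to 71858416 (plus strand). Its normalized counts were 360.2 to 468.8 in Whsc1-KO replicates 1 to 3, 1012 to 1250.2 in Whsc1-KO replicates 4 to 6, and 292.5 to 748.2 in WT, with a WT median of 497.2. The 3 later Whsc1-KO libraries exceeded every WT library, and the 3 earlier ones lay inside the WT range. The log2 fold change was 0.51 with SE 0.31 over all libraries (limma adjusted p = 0.176), 0.14 in replicates 1 to 3 (adjusted p = 0.654) and 0.97 in the later replicates (adjusted p = 0.00104). As for Itgb3, the myeloid marker sum was high in Whsc1-KO replicates 4 to 6, and WT replicate 5 was highest of its group in both Itga6 and that sum. In Whsc1-KO replicates 1 to 3 the sum was 1820 to 2754, against 830 to 2314 in WT, while Itga6 lay inside the WT range. The part of the myeloid sum in the Itga6 values was not tested.

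**Figure D2:**
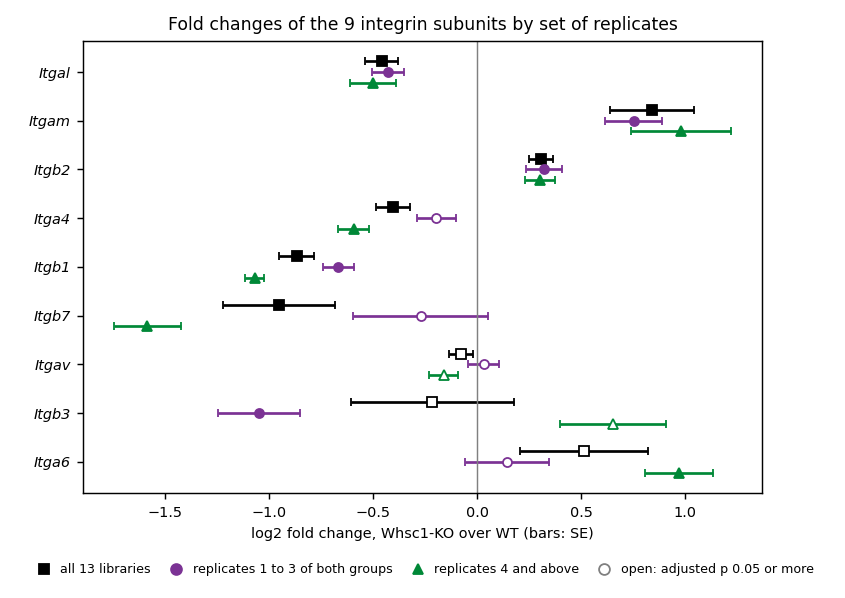
Log2 fold change of Whsc1-KO over WT (x axis) with its SE for each subunit, in all 13 libraries (black squares), replicates 1 to 3 of both groups (purple circles) and replicates 4 and above (green triangles); open symbols did not pass. Itgal, Itgam, Itgb2 and Itgb1 keep their side of 0 in all 3 sets and pass in each, while Itgb3 lies at -1.05 in replicates 1 to 3 and 0.65 in the later ones.

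Ratios of 2 chains within a library do not depend on how that library was scaled. The log2 ratio of normalized counts was tested for 6 pairs that are partners or compete for a partner, with a two-sided exact permutation test over all 1716 ways to choose the Whsc1-KO libraries, for which the smallest possible p is 0.000583. Itgal over Itgb2 was 1.17 to 1.78 in Whsc1-KO and 2.06 to 2.41 in WT, a difference of -0.77, or 0.588 times the WT ratio (exact p = 0.000583, adjusted over the 6 pairs 0.00175). Itga4 over Itgb1 was 1.1 to 1.41 in Whsc1-KO and 0.47 to 0.97 in WT, a difference of 0.46, or 1.38 times the WT ratio (exact p = 0.000583, adjusted 0.00175). The groups did not overlap for either ratio, so that αL fell relative to its β chain, while β1 fell further than α4. Without Whsc1-KO replicates 4 to 6 these 2 differences were -0.67 and 0.41 (adjusted exact p = 0.0167 for both).

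Itga6 over Itgb1 was -4.0 to -1.88 in Whsc1-KO and -5.11 to -3.73 in WT, a difference of 1.38 (exact p = 0.0035, adjusted 0.00699). That difference was 0.48 without Whsc1-KO replicates 4 to 6 (adjusted exact p = 0.163), so that its call rested on those libraries. Itga4 over Itgb7 differed by 0.55 (exact p = 0.0693, adjusted 0.104) and Itgb7 over Itgb1 by -0.08 (exact p = 0.734, adjusted 0.761), and both overlapped between the groups. The first of these passed without Whsc1-KO replicate 1 (0.69, adjusted exact p = 0.0436) or without WT replicate 1 (0.70, adjusted exact p = 0.0227). Itgav over Itgb3 was 0.58 to 1.45 in Whsc1-KO replicates 1 to 3, -1.26 to -0.80 in Whsc1-KO replicates 4 to 6 and -0.98 to 0.28 in WT. Its difference was 0.14 over all libraries (exact p = 0.761) and 1.12 without Whsc1-KO replicates 4 to 6 (adjusted exact p = 0.0167).

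**Figure D3:**
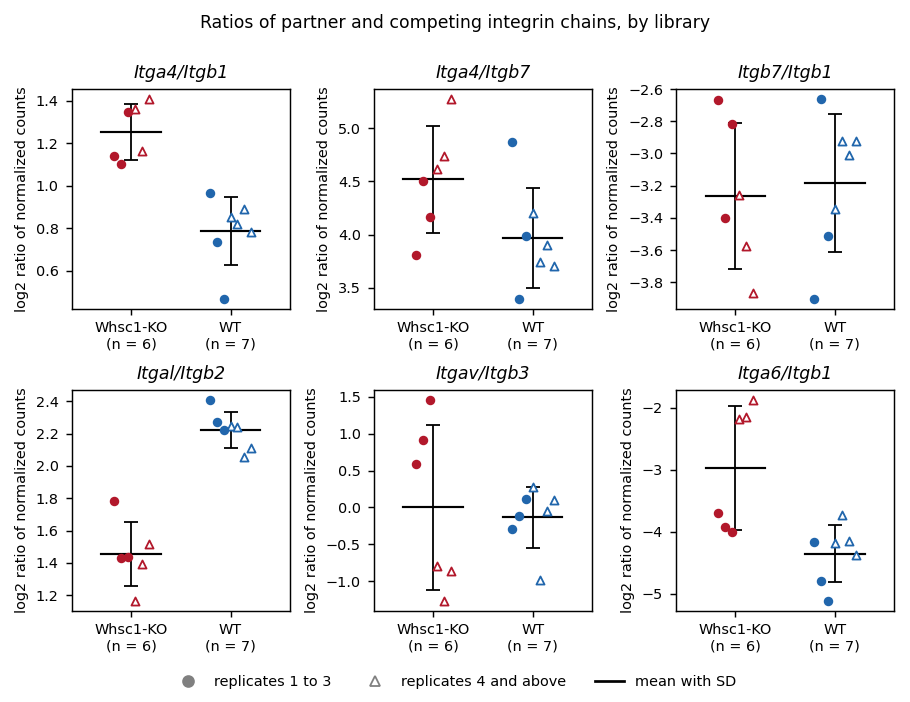
Log2 ratio of normalized counts of 2 chains (y axis) in every library, Whsc1-KO (red) left of WT (blue), with the mean and SD in black. Itga4/Itgb1 is higher and Itgal/Itgb2 lower in all 6 Whsc1-KO libraries than in any WT library, and the Itgav/Itgb3 and Itga6/Itgb1 values of Whsc1-KO replicates 4 to 6 lie apart from those of replicates 1 to 3.

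To set the subunits beside each other, normalized counts were divided by the length of annotated exons. In Whsc1-KO the order of the mean level per kilobase was Itgal (3234 ± 272), Itgb2 (2539 ± 199), Itgb1 (1306 ± 202), Itga4 (906 ± 114), Itgam (428 ± 141), Itgb3 (418 ± 272), Itgb7 (214 ± 91.9), Itgav (185 ± 8.34) and Itga6 (83.5 ± 42.6; SD, n = 6). In WT it was Itgal (4456 ± 466), Itgb1 (2364 ± 102), Itgb2 (2049 ± 115), Itga4 (1194 ± 90.4), Itgb3 (406 ± 143), Itgb7 (399 ± 115), Itgam (236 ± 62.1), Itgav (196 ± 15.8) and Itga6 (53.9 ± 16.2; SD, n = 7). Among neighbours in these orders the library ranges overlapped in Whsc1-KO for Itgam and Itgb3, Itgb3 and Itgb7, and Itgb7 and Itgav. In WT they overlapped for Itgb1 and Itgb2, Itgb3 and Itgb7, Itgb7 and Itgam, and Itgam and Itgav. Itgal, Itgb1, Itgb2 and Itga4, the chains of LFA-1 and VLA-4, were thus the 4 most abundant transcripts of the 9 in both groups, and Itgb2 stood above Itgb1 in Whsc1-KO with no overlap. Exon length counts every annotated isoform, so that these levels are approximate.

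The table held 17 other integrin subunits, of which 9 passed the filter. Of these 9, 3 were higher in Whsc1-KO, 1 was lower and 5 did not pass, against the 26.1% of all genes called higher and 25.7% called lower. Itga3, a laminin receptor chain, had normalized counts of 77.8 to 124.9 in Whsc1-KO and 20.8 to 49.7 in WT, without overlap, and a log2 fold change of 1.56 with SE 0.21 (limma adjusted p = 0.000104). Itgax encodes CD11c, an α chain of β2 found on dendritic cells, macrophages and some activated B cells; it had 26.1 to 160.6 normalized counts in Whsc1-KO and 9.60 to 39.3 in WT, and a log2 fold change of 1.93 with SE 0.40 (adjusted p = 0.00144). Its highest values were those of Whsc1-KO replicates 2 and 3, and only Whsc1-KO replicate 5 lay inside the WT range. Without Whsc1-KO replicates 4 to 6 the log2 fold change of Itgax was 2.54 (adjusted p = 0.000404). Over all libraries 6 of 7 tested myeloid and 5 of 5 tested red pulp macrophage markers were higher, and of the 3 dendritic cell markers that passed the filter 0 were higher and 1 was lower. Within Whsc1-KO, replicate 5 had the lowest Itgax, 26.1, and the highest myeloid sum, 15117. In replicates 1 to 3 alone, where Itgax was at 2.70 (limma adjusted p = 0.00776), 2 of the 7 myeloid and 0 of the 5 red pulp macrophage markers were higher, against 6.79% of all genes. The 2 were Adgre1, the F4/80 antigen of macrophages, and Cd68, a lysosomal protein of macrophages (1.65 and 1.00 on the log2 scale, adjusted p = 0.0216 and 0.00611). The part of these cells in the Itgax result was not tested. Itgb4, which pairs with α6, was at 22.3 to 45.2 in Whsc1-KO and 10.8 to 23.9 in WT (log2 fold change 1.01, adjusted p = 0.00332). Itga10, a collagen receptor chain, was at 80.2 to 121.3 in Whsc1-KO and 139.2 to 252.0 in WT, without overlap (log2 fold change -1.0, adjusted p = 0.000199). Itgb4 was at 0.95 and Itga10 at -0.75 in replicates 1 to 3 alone, and neither passed (adjusted p = 0.107 and 0.0533), while Itga3 and Itgax passed in all 3 reduced sets.

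Itga5, the fibronectin receptor chain of macrophages and many other cells, showed the widest split. It had 20.1 to 33.5 normalized counts in Whsc1-KO replicates 1 to 3, 404.6 to 586.1 in Whsc1-KO replicates 4 to 6 and 27.2 to 67.2 in WT. Its log2 fold change was 1.43 over all libraries and did not pass (limma adjusted p = 0.136), was 3.38 in the later replicates (adjusted p = 7.25e-06), and passed with edgeR and DESeq2 on recovered reads (2.54 and 2.56, adjusted p = 0.00912 and 0.00149). Itga9 had 6.69 to 27.5 in Whsc1-KO replicates 1 to 3, 86.6 to 167.0 in Whsc1-KO replicates 4 to 6 and 5.20 to 24.2 in WT (log2 fold change 1.59, adjusted p = 0.0517). Itga9 passed with edgeR (2.22, adjusted p = 0.00838), DESeq2 (2.25, adjusted p = 0.000796), a pseudocount of 5 (1.40, adjusted p = 0.0454) and the later replicates alone (3.00, adjusted p = 0.00086), and with those 3 Whsc1-KO libraries left out it was at 0.13 (adjusted p = 0.864). Both were high in Whsc1-KO replicates 4 to 6, as was the myeloid marker sum. In Whsc1-KO replicates 1 to 3 that sum was 1820 to 2754, against 830 to 2314 in WT, while Itga5 was at 20.1 to 33.5. WT replicate 5, with the highest myeloid sum of its group, had 38.5 for Itga5 and the lowest WT value of Itga9, 5.20. The part of the myeloid sum in either gene was not tested. The log2 fold changes of Itga2b, Itgae and Itgb5 were -0.31, 0.04 and 0.66 (adjusted p = 0.237, 0.934 and 0.06). Itgb5 passed with DESeq2 (0.66, adjusted p = 0.0342), the sex score (0.76, adjusted p = 0.0439) and the later replicates alone (0.93, adjusted p = 0.0106), and Itga2b was lower with the sex score (-0.50, adjusted p = 0.0279). Among the 8 subunits under the filter, Itgad, the fourth α chain of β2, had 4.66 to 24.0 normalized counts in Whsc1-KO and 0 to 0.91 in WT, and Itga11 had no read in any library.

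**Figure D4:**
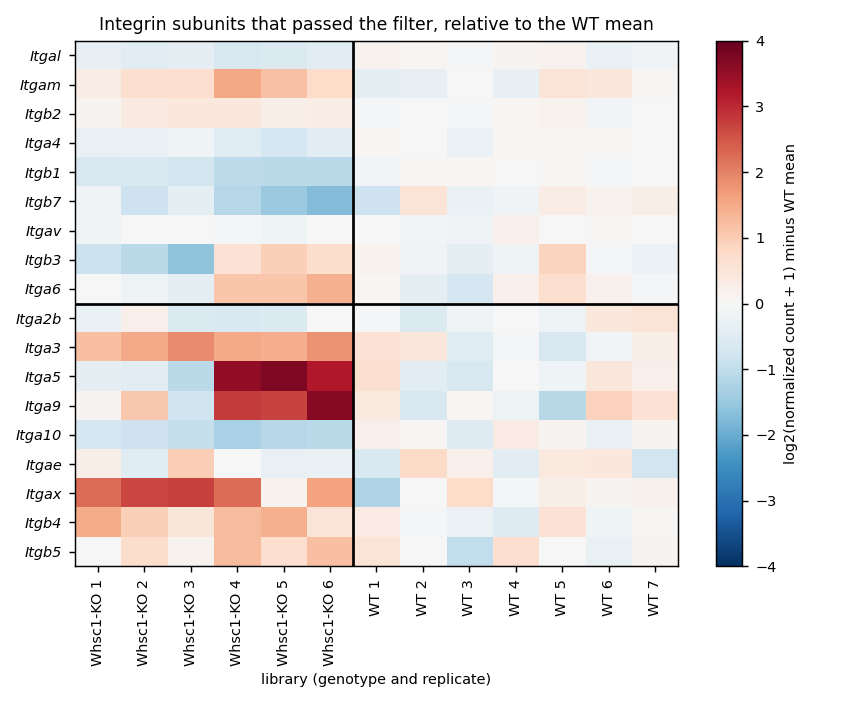
Log2(normalized count + 1) minus the WT mean (colour) for the 9 subunits (above the line) and the 9 other integrin subunits that passed the filter (below it), with Whsc1-KO libraries left of WT libraries. Itga5 and Itga9 are darkest in Whsc1-KO replicates 4 to 6, while Itga3 is red in all 6 Whsc1-KO libraries.

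Genes that act on integrins were taken from 6 lists and read against the 26.1% of all genes called higher and 25.7% called lower; without Whsc1-KO replicates 4 to 6 those shares were 14% and 15.6%, and the counts in that smaller set are read against them. Of 14 tested integrin activators 3 were higher and 6 lower, and the median of their log2 fold changes was -0.11. Skap1, an adaptor that links Rap1 signalling to LFA-1 in T cells, had 1.08 to 8.15 normalized counts in Whsc1-KO and 10.4 to 48.0 in WT. Its log2 fold change was -2.80 (limma adjusted p = 0.000159), and -2.30 without Whsc1-KO replicates 4 to 6. No Whsc1-KO library reached the 10 of the filter, so Skap1 entered the test through its WT libraries alone. Its call, 1 of the 6 lower, is therefore given as a description only. The sum of 8 T cell markers beside Skap1 was 58.8 to 173 normalized counts in Whsc1-KO and 37.1 to 119 in WT. Rasgrp2, the exchange factor that switches on Rap1 in platelets and leukocytes, averaged 4004 ± 453 (SD, n = 6) in Whsc1-KO and 6173 ± 1506 (SD, n = 7) in WT, a log2 fold change of -0.60 (adjusted p = 0.00217). Rapgef1, another Rap1 exchange factor, was lower at -0.35 (adjusted p = 0.0025), and Tln2, a talin of low level here, higher at 1.46 (adjusted p = 0.00274). Tln1 and Fermt3, the talin and the kindlin of blood cells, were at -0.03 and 0.11 and did not pass (adjusted p = 0.623 and 0.119); they are outside the naming rule and were chosen for their role. Without Whsc1-KO replicates 4 to 6 the count of activators was 1 higher and 5 lower. Rasgrp2 and Rapgef1 lost their calls in replicates 1 to 3 alone (-0.42 and -0.31, adjusted p = 0.0779 and 0.115).

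Of 9 genes that hold integrin activation back 1 was higher and 1 lower (median -0.04), and 0 passed in either direction without Whsc1-KO replicates 4 to 6. Rap1gap2, a protein that switches Rap1 off, was higher at 1.17 on the log2 scale (limma adjusted p = 0.00217) and Rasa3, which acts on Rap1 and Ras, lower at -0.45 (adjusted p = 0.016). Sipa1 and Sharpin were at 0.20 and -0.10 (adjusted p = 0.18 and 0.251). Rasa3 was at 10425 to 10842 normalized counts in Whsc1-KO replicates 1 to 3, 6752 to 8069 in Whsc1-KO replicates 4 to 6 and 9346 to 15350.2 in WT, so that its difference lay in the later libraries. Rap1gap2 was at 0.71 and Rasa3 at -0.18 without Whsc1-KO replicates 4 to 6, and neither passed (adjusted p = 0.0582 and 0.323). In replicates 1 to 3 of both groups alone Rap1gap2 passed at 0.86 (adjusted p = 0.0152), while Rasa3 was at 0.0078 (adjusted p = 0.964).

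Of 17 adhesion complex genes, which tie the β chain tail to actin, 6 were higher and 5 lower (median 0.01); without Whsc1-KO replicates 4 to 6 there were 2 higher and 4 lower. The α-actinins Actn4 and Actn1, which cross-link actin, were higher at 0.45 and 1.33 (limma adjusted p = 0.000182 and 0.00121), and Parvb, a parvin, at 1.48 (adjusted p = 0.00231), a call that the fit without the 3 later Whsc1-KO libraries did not make (adjusted p = 0.0719). Nedd9, an adaptor of β1 signalling in lymphocytes, was lower at -0.32 (adjusted p = 0.00127), with 6775 to 8711 normalized counts in Whsc1-KO and 9068 to 10697 in WT. Actn4, Actn1, Parvb and Nedd9 did not pass in replicates 1 to 3 alone (0.26, 0.75, 1.31 and -0.17, adjusted p = 0.0565, 0.0761, 0.0834 and 0.105). Of 10 recycling genes 3 were higher and 2 lower, and 1 and 1 without Whsc1-KO replicates 4 to 6. Snx17, which saves β1 from breakdown in endosomes, was higher at 0.25 (adjusted p = 0.00154), and Acap1, which returns β1 to the surface, lower at -0.46 (adjusted p = 0.00211). Rab11fip1 and Rab4a, of the recycling routes, were higher at 0.41 and 3.20 (adjusted p = 0.00893 and 0.00943); Rab4a ran from 70.6 to 133.35 in Whsc1-KO and from 0 to 58.4 in WT, where its spread was wide, and its log2 fold change was 1.16 in replicates 1 to 3, where it passed (adjusted p = 0.0391). Acap1, Rab11fip1 and Rab4a lost their calls without Whsc1-KO replicates 4 to 6 (-0.27, 0.29 and 3.11, adjusted p = 0.0563, 0.134 and 0.0773), and in replicates 1 to 3 alone Snx17, Acap1 and Rab11fip1 did not pass (0.21, -0.14 and 0.41, adjusted p = 0.133, 0.317 and 0.0985).

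Of 13 tested ligand genes 5 were higher and 3 lower, and 2 and 2 without Whsc1-KO replicates 4 to 6. Icam4, 1 of the 5, met the filter through Whsc1-KO, at 11.8 to 16.7 against a WT median of 7.62. Madcam1, 1 of the 3, met it through WT, at 12.6 to 82.2 against a Whsc1-KO median of 9.625. Both calls are given as a description only, and both genes are outside the naming rule. Icam2, a ligand of LFA-1, had 959.7 to 1118 normalized counts in Whsc1-KO and 1522 to 1742 in WT, without overlap, and a log2 fold change of -0.63 with SE 0.05 (limma adjusted p = 2.42e-06). Icam1, another ligand of LFA-1, was at 0.13 and did not pass (adjusted p = 0.184; chosen for its role). The laminin chains Lama5 and Lamc1 were at 1.68 and -0.35 (adjusted p = 0.00024 and 0.0018), and Icam5, low in both groups, at 1.26 (adjusted p = 0.00044). Lama5 and Lamc1 did not pass in replicates 1 to 3 alone (1.34 and -0.30, adjusted p = 0.0731 and 0.104). Of 11 tetraspanins and other membrane partners 3 were higher and 3 lower, and 2 and 2 without Whsc1-KO replicates 4 to 6. Cd37, a tetraspanin of B cells, averaged 11668 ± 2417 (SD, n = 6) in Whsc1-KO and 17763 ± 1280.5 (SD, n = 7) in WT (-0.63 on the log2 scale, adjusted p = 0.000587), and Cd47, which binds integrins laterally, was lower at -0.41 (adjusted p = 0.000302). Cd9 and Cd63, both tetraspanins, were higher at 0.73 and 1.89 (adjusted p = 0.00219 and 0.0044); Cd63 lost its call without Whsc1-KO replicates 4 to 6 (0.78, adjusted p = 0.111). Within replicates 1 to 3 it was at 0.65 (adjusted p = 0.213).

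**Figure D5:**
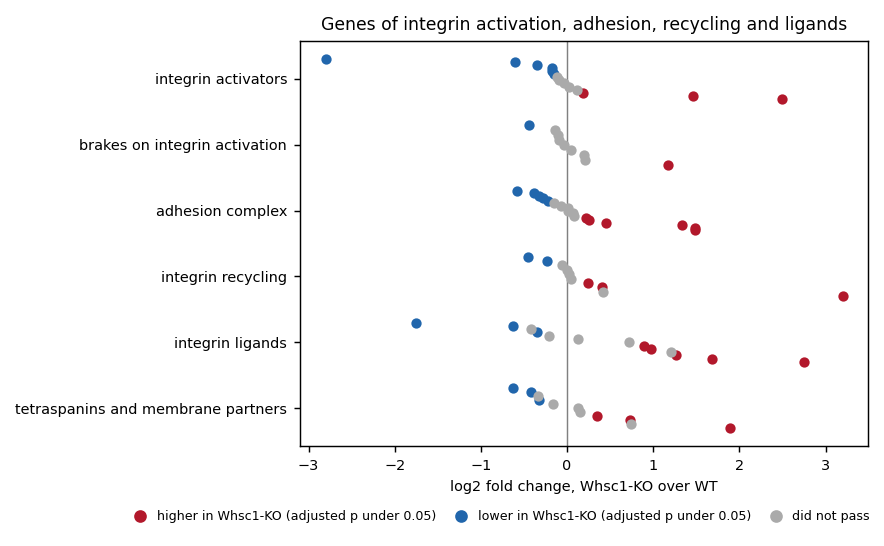
Log2 fold change of Whsc1-KO over WT (x axis) of each tested gene in 6 lists that act on integrins, 1 point per gene; red points were higher and blue points lower in Whsc1-KO, and grey points did not pass. Both directions occur in every list, with Skap1 at -2.80 and Rab4a at 3.20 at the ends. Skap1 passed the filter through its WT libraries alone, and Madcam1 and Icam4 met it through the WT and the Whsc1-KO libraries, in that order.

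The genes whose values ran most like those of each subunit were looked up by Pearson's r over the 13 libraries after taking off each group's mean, as a description without a test. Whsc1-KO replicates 4 to 6 and 1 to 3 lie apart for many genes, and such an r holds that split as well as the spread within each set. The genes were Ceacam2 (0.971) and Zbtb20 (0.944) for Itgb1, Adcy6 (0.972) and Svil (0.969) for Itgb3, and Spred2 (0.959) and Srp14 (0.959) for Itga6. For Itga4 they were Rab13 (0.933) and Tmem140 (0.931), for Itgal Anapc16 (0.912) and Rhebl1 (0.863), and for Itgam Zfp39 (0.857) and Lgals1 (0.851). For Itgav they were Ell3 (0.953) and Fbxl8 (0.923), for Itgb2 Laptm4a (0.952) and Ssr4 (0.937), and for Itgb7 Fam120b (0.958) and Kbtbd11 (0.929). No subunit was among the 2 genes most like another. Between subunits the largest r in size were 0.930 for Itga6 and Itgb3, -0.822 for Itgb1 and Itgb3, and -0.815 for Itga6 and Itgb1.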

How the data were processed

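RNA of 6 Whsc1-KO and 7 WT libraries was sequenced in paired-end, stranded libraries after poly-A selection, and the groups are those of the labels; the series' design text calls the samples independent. Per the submitters' processing notes, the tools were STAR 2.5.1b, RSEM 1.2.28 and DESeq2 1.10.1; the notes list both GRCm38 and mm9 as builds, and what each served for is not given in the sources used here. In each library the deposited signal values were whole multiples of 1 step (tolerance 0.05 reads), which makes them counts per gene over a size factor. The authors' table of log2 fold changes, with Wald scores and adjusted p-values per the file headers, was used for the values credited to it. The deposited gene list and enrichment tables were not used.

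Genes were tested with limma 3.58.1 (variance trended on the mean), applied to log2(normalized count + 1), for the 13947 genes with a value of 10 or more in at least 6 libraries; 33696 were not tested. Tests were two-sided, p was adjusted by Benjamini-Hochberg over all genes tested, and the threshold was 0.05. Such fold changes can understate the change of low genes, and values of 0 in some libraries can enlarge it. Rab4a, at 3.20 on the log2 scale, had means of 99.4 in Whsc1-KO and 23.9 in WT, or 416% of WT. Alternatives were a pseudocount of 5, no filter, TMM scaling, edgeR 4.0.16 and DESeq2 1.42.0 on recovered reads, a replicate block, a sex score (Y-linked genes minus Xist) as a covariate, each library left out and 3 sets of replicates. The fits ran in R 4.3.3, tables and plots in Python 3.11.15 with numpy 2.4.6, pandas 2.3.3 and matplotlib 3.10.9, and the fits were tested on simulated data. No libraries of a group were duplicates: the smallest chi-square between a pair, 26.8 for each gene on average, was that of Whsc1-KO replicates 4 and 5, where sampling noise alone gives about 1.

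The subunits, lists and tests were chosen with earlier results of these data known. Genes are named by rule: the 9 subunits, Whsc1, the other integrin subunits that passed the filter, of each list or marker set the tested genes lowest in adjusted p, 4 at most, and the 2 genes most like each subunit, leaving out predicted genes. The rule gave 93 genes. Coordinates and exon lengths are those of GENCODE M21 for GRCm38, which matched 99.1% of the identifiers; promoters come from RefSeq.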

Additional observations from a re-analysis of the deposited data

Results flagged for a closer look

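Of 48 groups of libraries, each of 6 or 7, in which the highest or lowest value was compared with the spread of the rest by Dixon's criterion at 95%, 2 held a value far from the others, and chance gives about 1 in 20. Itga4 was 14052.7 normalized counts in WT replicate 3, where the next WT library had 16400.2. Itgb3 was 4228.05 normalized counts in WT replicate 5, where the next WT library had 2527.05. WT replicate 5 also had the highest myeloid marker sum of the WT group. Most of that sum was Ly6c2, and its red pulp macrophage sum lay inside the range of the other WT libraries. Leaving out WT replicate 3 gave a log2 fold change of -0.44 for Itga4, and leaving out WT replicate 5 gave -0.069 for Itgb3.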

How the results depend on the processing

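In limma fits that left out any 1 library, 2 subunits were higher and 4 lower each time, with 3135 to 3776 genes called higher and 3148 to 3723 lower. The pseudocount, the filter, TMM scaling, edgeR, DESeq2 and the sex score kept those counts of subunits. Leaving out Whsc1-KO replicates 4 to 6 gave 1947 genes higher, 2177 lower and 1 subunit higher, and replicates 1 to 3 alone gave 947 higher and 1222 lower; fewer libraries entered both fits. The sign of some log2 fold changes that did not pass with all libraries turned. Without Whsc1-KO replicates 4 to 6 Itga6 was at -0.19 and Itga5 at -0.63. In replicates 1 to 3 Itgav was at 0.032, Itga2b at 0.051, Itga5 at -0.47, Sharpin at 0.10 and Rasa3, which passed with all libraries, at 0.0078. In the later replicates Itgb3 was at 0.65 and Itgae at -0.10. Itgb3 was also at 0.033 with edgeR, 0.040 with DESeq2 and 0.050 with the sex score. The cause was not tested.

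For the ratios, leaving out Whsc1-KO replicates 4 to 6 gave 0.22 for Itgb7 over Itgb1, 1.12 for Itgav over Itgb3 and 0.48 for Itga6 over Itgb1. Leaving out single libraries gave 0.40 to 0.70 for Itga4 over Itgb7, -0.20 to 0.038 for Itgb7 over Itgb1 and -0.15 to 0.39 for Itgav over Itgb3, and -0.45 to 0.061 for the fold change of Itgb3, -0.16 to 0.16 for Itgae, 0.97 to 1.93 for Itga5, 1.18 to 2.07 for Itga9 and 0.49 to 0.80 for Itgb5. Itga5 passed without Whsc1-KO replicate 3, Itga9 without Whsc1-KO replicate 1 or 3 or WT replicate 6, Itgb5 without Whsc1-KO replicate 1 or 3 or WT replicate 1 or 4, Sipa1 without WT replicate 4 and Itga4 over Itgb7 without replicate 1 of either group. Itgb3 turned without Whsc1-KO replicate 3, Itgav over Itgb3 without Whsc1-KO replicate 2 or 3 or WT replicate 5, Itgb7 over Itgb1 without Whsc1-KO replicate 6 or WT replicate 2, and Itgae without Whsc1-KO replicate 1 or 3 or WT replicate 1, 4 or 7.

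Replicate numbers are shared by the labels of both groups, but the deviations of libraries with the same number correlated at -0.11 to 0.21, so the numbers do not show pairing. With the replicate block, 3 subunits were higher and 3 lower, beside 3023 of all 13947 genes higher and 3085 lower. Itga6 then passed (0.51, limma adjusted p = 0.0454), Itgb7 and Rasa3 did not (-0.91 and -0.43, adjusted p = 0.0561 and 0.0867), and Itgae was at -0.094. Genes under the filter, Itgad and the second Itgam identifier among them, are limited by depth and were not tested.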
